A study of Mus musculus with 24 samples.

Results

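Cortical excitatory neuron marker genes were followed in RNA sequencing of nucleus accumbens tissue from mice, which belongs to the ventral striatum. They are 31 named genes of glutamatergic and cortical layer neurons, taken by symbol from the 37991 genes of the count table. All 31 were found there. Their choice used no threshold on measured values but was made with earlier results of these data known, so no p-value was computed over the list. The study had 24 libraries from 8 groups of 3, and each library held pooled RNA of 4 C57BL/6J mice, so n counts libraries. In the floxed experiment, stressed Dnmt3a2lox/2lox mice, whose Dnmt3a gene carries loxP sites, received AAV-CRE or AAV-GFP, a viral vector for Cre recombinase or for green fluorescent protein. Its groups were Cre males, GFP males, Cre females and GFP females. All 4 of these groups were stressed and carried the floxed alleles. In the wild-type experiment, stressed males, control males, stressed females and control females received no virus. The sources used here give no ages, no promoter for Cre and no time of collection. The labels name nucleus accumbens as the tissue, and the protocol also names dorsal striatum for the punches.

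Glutamatergic neurons of the cortex, hippocampus and amygdala load glutamate into synaptic vesicles with the transporter VGLUT1, the product of Slc17a7, while many thalamic and other subcortical neurons use VGLUT2, the product of Slc17a6. Pallial neurons also hold a set of transcription factors that set their identity and layer, among them Tbr1, the NeuroD proteins, Fezf2 and Emx1. The striatum itself consists mostly of GABAergic medium spiny neurons and receives axons of cortical neurons, whose cell bodies lie outside it. In bulk tissue, fewer cells of a type and less RNA per cell cannot be told apart.

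RefSeq promoter windows (GRCm38.p6) matched 27 of the 31 genes by symbol, with 38 windows in all, since a gene can have several starts. The 250 bases upstream of the start are printed for 4 genes, both vesicular glutamate transporters and a pair of NeuroD factors, since the results turn on the 2 transporters, of which Slc17a7 was called in Cre males and Slc17a6 was not, and on factors called beside them. As a check, the bases just after each start were sought in GENCODE M21 transcripts of the same gene. They were found for Neurod2 and Neurod6 but not for Slc17a7 or Slc17a6, so the starts of the 2 transporters rest on RefSeq alone. Capitals mark the E-box CAGATG or its reverse complement CATCTG, the hexamer bound by NeuroD proteins. The windows lie at chr7:45163671-45163920 on the plus strand for Slc17a7, chr7:51621580-51621829 on the plus strand for Slc17a6, chr11:98329646-98329895 on the minus strand for Neurod2 and chr6:55681264-55681513 on the minus strand for Neurod6.
Slc17a7: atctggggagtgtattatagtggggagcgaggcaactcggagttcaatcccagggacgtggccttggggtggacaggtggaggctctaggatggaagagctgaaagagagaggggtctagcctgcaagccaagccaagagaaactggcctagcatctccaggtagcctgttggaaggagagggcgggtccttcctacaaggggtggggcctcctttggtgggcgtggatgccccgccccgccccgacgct
Slc17a6: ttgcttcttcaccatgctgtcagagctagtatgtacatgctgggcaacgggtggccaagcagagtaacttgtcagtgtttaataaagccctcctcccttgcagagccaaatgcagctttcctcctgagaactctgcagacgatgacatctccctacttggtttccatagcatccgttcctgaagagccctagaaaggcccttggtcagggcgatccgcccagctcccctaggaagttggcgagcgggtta
Neurod2: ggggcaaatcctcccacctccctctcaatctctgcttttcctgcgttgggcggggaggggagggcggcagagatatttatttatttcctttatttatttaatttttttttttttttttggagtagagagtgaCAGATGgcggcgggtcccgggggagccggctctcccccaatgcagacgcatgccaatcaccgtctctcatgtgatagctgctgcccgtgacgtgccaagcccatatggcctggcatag
Neurod6: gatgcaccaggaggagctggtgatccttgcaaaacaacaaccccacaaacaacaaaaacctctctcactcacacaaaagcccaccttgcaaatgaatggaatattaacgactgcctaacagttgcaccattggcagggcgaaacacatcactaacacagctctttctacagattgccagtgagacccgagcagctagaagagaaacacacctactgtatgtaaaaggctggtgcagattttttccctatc
Of these 4 windows, the one of Neurod2 holds the hexamer on the printed strand, and the other 3 hold it on neither strand. A second Slc17a6 window, not printed, also holds it. Over all 38 windows 5 hold it (13.2%), against 14.4% of the 32851 RefSeq windows of the same length. The T-box octamer AGGTGTGA or its reverse complement TCACACCT is present in 1 of the 38, that of Slc30a3, and in 1.12% of all windows. CpG dinucleotides had a median of 17.5 per window in the markers, against 6 in all windows, and the GC content had a median of 63.2% against 52.4%. A match describes the letters only, and none of these counts was tested.

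Total counts were 28132563 to 59829070 per floxed library and 7116123 to 12145551 per wild-type library. Levels are given as CPM, a gene's counts per 1000000 counts of its library after TMM scaling within each experiment, so levels of floxed and wild-type libraries stand on separately normalised scales. Xist and the Y-linked gene Ddx3y were at the levels of the labelled sex in all 24 libraries. Dnmt3a, the targeted gene, was at 142.9, 137.3 and 138.2 CPM in Cre males against 181.5, 164.4 and 171.0 CPM in GFP males (log2 fold change -0.30, SE 0.06, edgeR quasi-likelihood test with Benjamini-Hochberg adjustment, adjusted p = 0.0149). In females Dnmt3a was at 155.1, 150.4 and 139.7 CPM with Cre against 162.0, 168.9 and 154.5 CPM with GFP (log2 -0.12, SE 0.06, adjusted p = 0.829). The punches were whole tissue, and the count is of the whole gene, the part outside the floxed segment included. Medium spiny neuron genes, a list of 23, summed to 5877 to 15620 CPM in the 24 libraries, and none of the 23 was at 0 in any group.

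Per kilobase of exon, the most abundant of the 31 genes in 7 of the 8 groups was Lmo4, a LIM-domain cofactor. In GFP males it stood at 31.3 ± 1.44 CPM per kb, followed by the corepressor Tle4 at 28.1 ± 0.84, Hs3st4 at 16.6 ± 1.17 and the transcription factor Mef2c at 10.1 ± 1.13 (SD, n = 3). Slc17a7 came further down at 1.198 ± 1.43 CPM per kb, with an SD above its mean. The exception was Cre males, in which Slc17a7 was first at 62.1 ± 26.8 CPM per kb, ahead of Lmo4 at 29.8 ± 3.45 and Tle4 at 23.2 ± 3.36. In Cre male library 3 alone, Slc17a7 and Lmo4 were level, Lmo4 at 31.27 and Slc17a7 at 31.15 CPM per kb. Lmo4, Tle4, Hs3st4 and Mef2c were well expressed in every library, while Neurod1 and Emx1 were near 0 in most. In control females the lowest were C1ql2 at 0.407, Bhlhe22 at 0.387, Emx1 at 0.310 and Neurod1 at 0.137 CPM per kb.

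**Figure D1:**
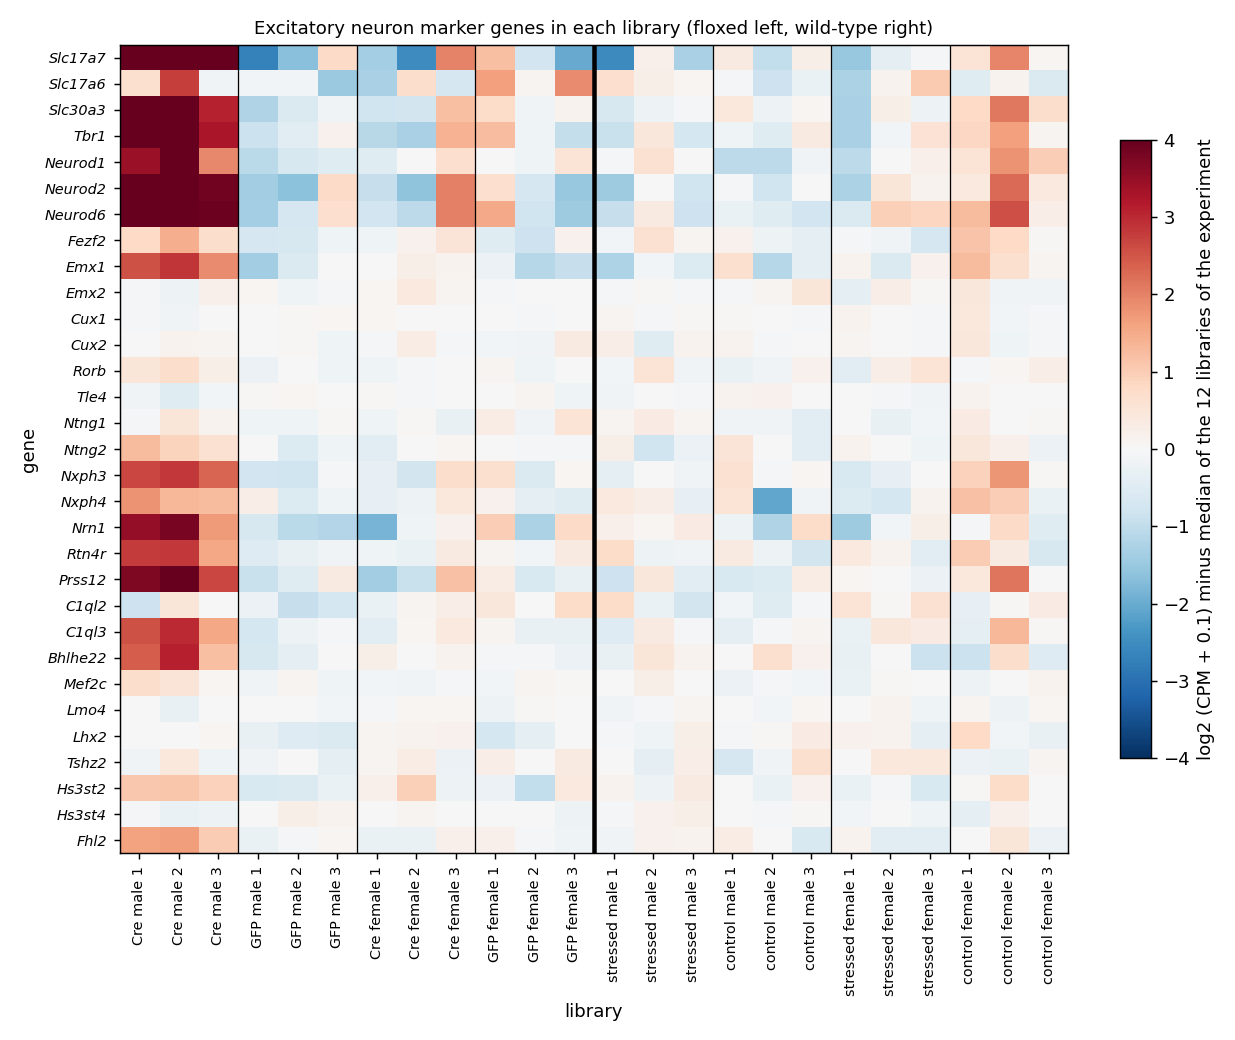
Level of each of the 31 genes (rows) in each of the 24 libraries (columns) as log2 (CPM + 0.1) minus the gene's median over the 12 libraries of its experiment, with colours capped at 4 either way; floxed libraries are left of the thick line and wild-type libraries right. The 3 Cre male columns are red for most rows, and control female library 2 is the reddest wild-type column, the highest of the 12 for 13 genes.

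In male mice with AAV-CRE, excitatory neuron markers from each role, but not all markers, were higher than in males with AAV-GFP. Among them were the glutamate transporter Slc17a7, the zinc transporter Slc30a3 and the transcription factors Tbr1, Neurod2 and Neurod6. Of the 31 genes, 19 were higher and 1 was lower at an adjusted p below 0.05. Over all 17597 genes tested, 4.96% were called, 3.68% higher and 1.28% lower. The shares stand side by side as a description, since the markers were chosen with earlier results of these data known. At an unadjusted p below 0.05 there were 25 of the 31 and 24.8% of all genes. The median log2 fold change of the 31 genes was 1.58, and that of all genes was 0.00. All 3 Cre male libraries lay above all 3 GFP male libraries for 20 of the genes and below them for 3, where 14.7% of all genes did so in each direction (29.4% in either). Each group is 3 pools of mice, so p-values measure the spread between pools.

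Slc17a7 was at 428, 408 and 168 CPM in Cre males, against 1.29, 2.76 and 15.3 CPM in GFP males. All Cre male libraries were far above the highest GFP male library, and the third Cre library was well below the other two. The log2 fold change was 5.62 with an SE of 1.31 (adjusted p = 0.0431). Slc30a3 encodes ZnT3, which loads zinc into the vesicles of the same terminals. It stood at 23.3, 26.3 and 5.83 CPM in Cre males against 0.204, 0.370 and 0.535 CPM in GFP males (log2 5.59, SE 0.78, adjusted p = 0.00825). Its 3 Cre libraries had the same order of heights as most of the other called markers. Slc17a6 was at 4.93, 21.9 and 2.81 CPM in Cre males against 2.89, 2.86 and 1.04 CPM in GFP males. The third Cre library fell within the GFP range and only the second was far above it, and the gene was not called (log2 2.17, SE 0.87, adjusted p = 0.165).

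Among the 17 transcription factors and cofactors, 9 were higher. Tbr1, a T-box factor of early-born and deep-layer cortical neurons, was at 42.3, 47.9 and 20.01 CPM in Cre males against 1.05, 1.41 and 2.27 CPM in GFP males (log2 4.51, SE 0.82, adjusted p = 0.0186). Neurod6, a basic helix-loop-helix factor of pyramidal neurons, was at 17.6, 19.0 and 6.44 CPM against 0.0679, 0.168 and 0.586 CPM (log2 5.59, SE 1.12, adjusted p = 0.0261). Neurod2, its relative, was at 17.3, 20.3 and 8.93 CPM with Cre against 0.136, 0.101 and 0.968 CPM with GFP (log2 5.14, SE 1.07, adjusted p = 0.0285). In each of these 3 genes the groups were far apart, and the third GFP library was the highest of its group.

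Neurod1, the third NeuroD gene, rested on few reads: 84, 205 and 24 counts in Cre males against 0, 1 and 2 in GFP males. The 0 in GFP male library 1 allows up to 0.102 CPM (3 counts). The ratio of the pooled CPM, from 313 counts over 3, was 77.2, with a 95% exact interval of 26.2 to 376 that covers counting error only, and the gene was called (adjusted p = 0.00623). Emx1, a homeobox factor of the dorsal telencephalon, was at 1.98, 2.48 and 1.201 CPM in Cre males against 0.0340, 0.135 and 0.255 CPM in GFP males (log2 3.64, SE 0.48, adjusted p = 0.00493). Its close relative Emx2 did not separate the groups, at 4.90, 4.53 and 6.03 CPM with Cre against 5.57, 4.64 and 4.99 CPM with GFP (log2 0.02, SE 0.13, adjusted p = 0.942). Bhlhe22 was at 7.80, 12.7 and 3.31 CPM against 0.849, 1.01 and 1.35 CPM (log2 2.88, SE 0.40, adjusted p = 0.00693). Fezf2, which directs the fate of subcortically projecting layer neurons, was higher as well, at 4.51, 7.09 and 4.16 CPM in Cre males against 1.56, 1.58 and 2.22 CPM in GFP males (log2 1.55, SE 0.30, adjusted p = 0.0173).

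The remaining called genes of this class were Fhl2 and Rorb. Fhl2, a LIM-domain cofactor, was at 14.9, 15.4 and 9.72 CPM in Cre males against 3.91, 4.51 and 4.97 CPM in GFP males (log2 1.58, SE 0.19, adjusted p = 0.00348). Rorb, a nuclear receptor of layer neurons, was at 21.1, 24.7 and 17.96 CPM in Cre males against 12.8, 15.04 and 13.3 CPM in GFP males, a smaller step without overlap (log2 0.64, SE 0.11, adjusted p = 0.0137). The other 8 factors were not called. Mef2c was at 271, 238 and 175 CPM with Cre against 150, 178 and 146 CPM with GFP and missed the threshold (log2 0.53, adjusted p = 0.0514). Lhx2 was at 21.8, 21.6 and 22.8 CPM against 17.7, 15.2 and 14.4 CPM without overlap, and also missed it (log2 0.48, adjusted p = 0.069). Tle4 and Cux1, both lower in every Cre male library, had log2 -0.28 (adjusted p = 0.115) and -0.12 (adjusted p = 0.154). Cux2, Lmo4, Tshz2 and Emx2 lay between -0.07 and 0.27. The layer factors Cux1, Cux2, Tle4 and Lmo4 were thus not called, at levels of 23.6 CPM or more in every floxed library.

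**Figure D2:**
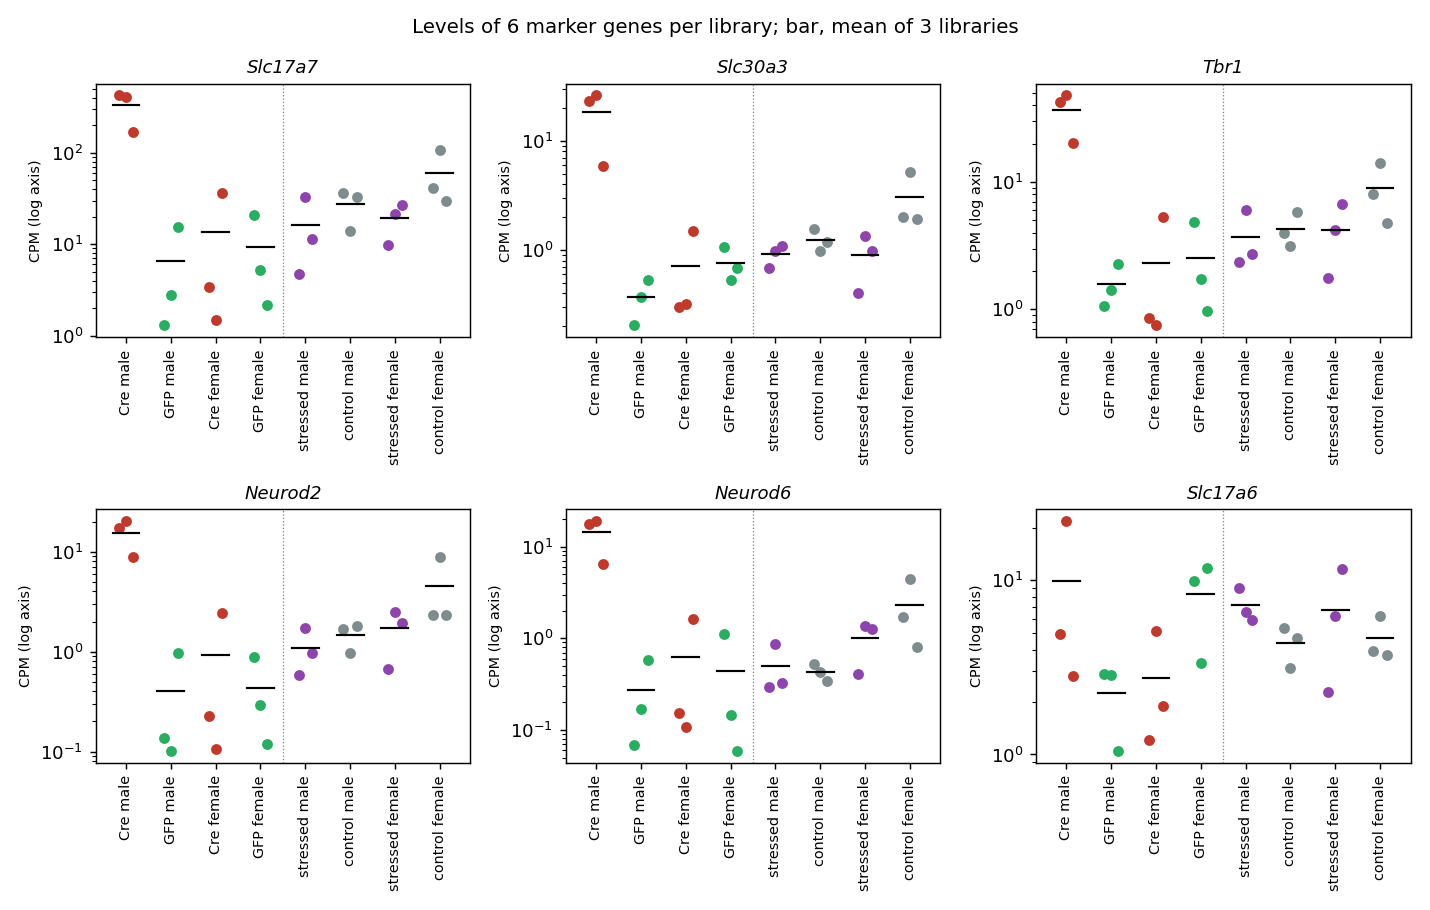
CPM in each library (points, log axis) of 6 markers by group, with the mean of 3 libraries as a bar; floxed groups are left of the dotted line and wild-type groups right. Cre males are the highest group for Slc17a7, Slc30a3, Tbr1, Neurod2 and Neurod6, while Slc17a6 is high in 1 of the 3 Cre male libraries and overlaps the other groups.

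Synaptic adhesion and secreted proteins gave 5 higher of 7. C1ql3, a secreted C1q-like protein of excitatory synapses, was at 28.3, 38.9 and 14.3 CPM in Cre males against 2.89, 4.17 and 4.48 CPM in GFP males (log2 2.82, SE 0.36, adjusted p = 0.00623). Nxph3, a neurexophilin that binds neurexins, was at 15.1, 16.6 and 11.7 CPM against 1.29, 1.25 and 2.11 CPM (log2 3.20, SE 0.41, adjusted p = 0.00623). Both genes had Cre libraries several times above the highest GFP library. Prss12, the secreted protease neurotrypsin, was at 18.1, 23.5 and 8.70 CPM with Cre against 0.645, 0.875 and 1.66 CPM with GFP (log2 3.95, SE 0.69, adjusted p = 0.0154). Nxph4, another neurexophilin, was at 3.95, 2.85 and 2.72 CPM in Cre males against 1.32, 0.707 and 0.943 CPM in GFP males (log2 1.68, SE 0.30, adjusted p = 0.0134). The netrin-G gene Ntng2 was at 17.5, 13.5 and 10.98 CPM with Cre against 7.30, 4.88 and 6.37 CPM with GFP (log2 1.18, SE 0.19, adjusted p = 0.00983). For both, library 1 was the highest of the Cre males. Of the paralogs of Ntng2 and C1ql3, Ntng1 had log2 0.32 (adjusted p = 0.284) and C1ql2 log2 0.65 (adjusted p = 0.281), with overlapping groups.

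Both membrane-anchored proteins of neurites were higher. Rtn4r, the Nogo receptor, was at 15.8, 16.5 and 6.62 CPM in Cre males against 1.53, 1.78 and 1.99 CPM in GFP males (log2 2.87, SE 0.33, adjusted p = 0.00324), the smallest adjusted p of the 31 genes. Nrn1, which encodes the activity-regulated neuritin, was at 22.9, 28.0 and 6.50 CPM against 1.19, 0.841 and 0.790 CPM (log2 4.36, SE 0.78, adjusted p = 0.0173). The 2 heparan sulfate 3-O-sulfotransferases, which modify sugar chains at the cell surface, moved in opposite directions. Hs3st2 was at 16.8, 17.2 and 15.2 CPM with Cre against 5.197, 5.32 and 6.62 CPM with GFP (log2 1.52, SE 0.34, adjusted p = 0.0351). Hs3st4, the single marker called lower, was at 45.8, 39.8 and 42.4 CPM with Cre against 49.4, 56.8 and 52.9 CPM with GFP (log2 -0.31, SE 0.07, adjusted p = 0.0325). Of the 31 genes, 9 share exon positions with a gene on the other strand (Neurod1, Emx2, Cux1, Nrn1, Prss12, C1ql3, Tshz2, Hs3st2 and Hs3st4), and the strand setting of the counts is not given, so reads of these pairs cannot be told apart.

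**Figure D3:**
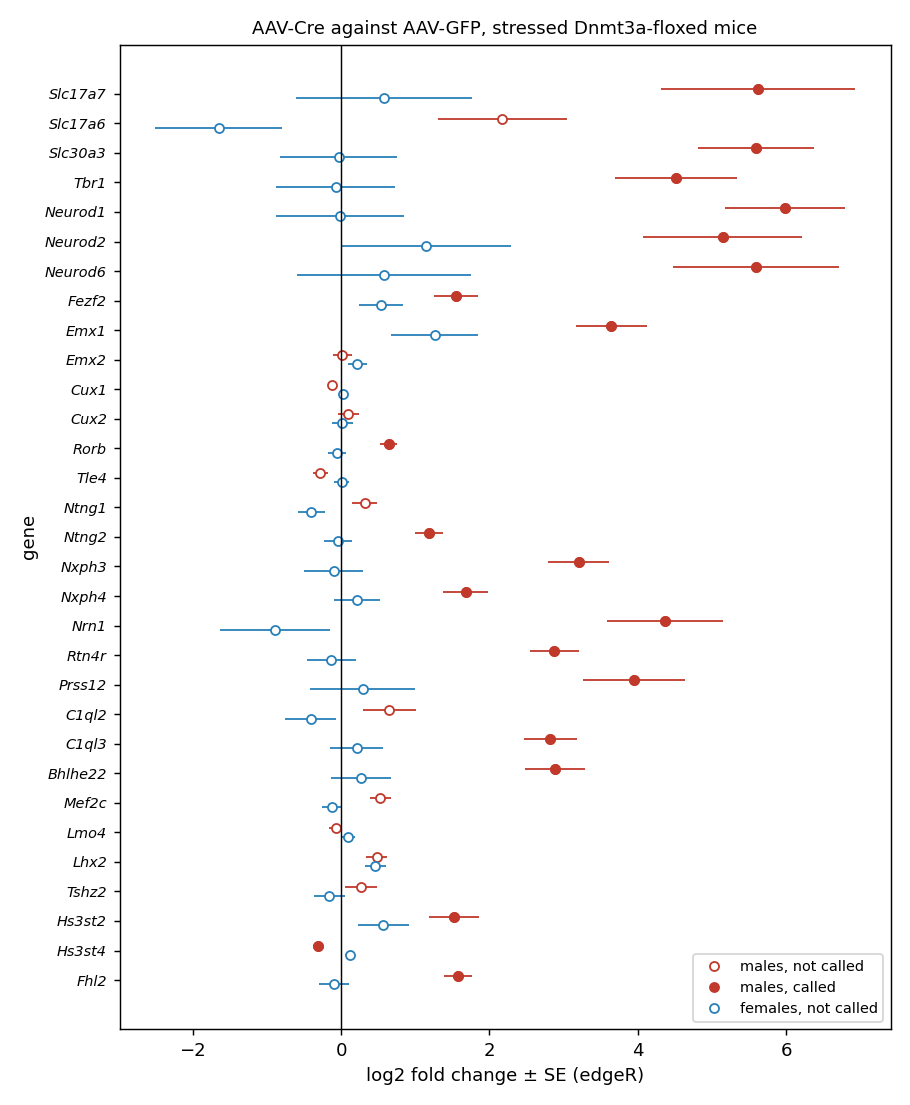
Log2 fold change of Cre over GFP with its SE for the 31 genes, in males (red) and females (blue), filled where the adjusted p is below 0.05. Males have 20 filled points, from -0.31 for Hs3st4 to 5.98 for Neurod1, and females have none.

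The 19 markers called higher differed in height between the 3 Cre male libraries. Of them, 16 were highest in library 2, then library 1, then library 3, as were 46.1% of the 647 genes called higher, and the other 3 had library 1 highest and library 3 lowest. Library 3 was the lowest for all 19, against 67.4% of the 647. The 11 markers that were not called had mixed orders, with library 3 the highest for 4. All 3 Cre male libraries lay above each of the other 9 floxed libraries for 18 of the 31 genes, against 2.94% of all 17597 genes. The summed level of the 31 genes was 1441, 1396 and 952.2 CPM in Cre males and 664.2 to 709.4 CPM in GFP males. Most of the GFP male sum came from Tle4, Mef2c, Lmo4 and Cux1, which were not called. Their means there were 160.1, 158.0, 110.6 and 83.7 CPM, against 6.46 CPM for Slc17a7. The sum therefore says little about the markers that were called. Per kilobase, Tbr1 was at 9.72%, 11.5% and 11.7% of Slc17a7 in Cre male libraries 1, 2 and 3, and Neurod6 was at 10.3%, 11.7% and 9.62%. Those shares lay closer together than the Slc17a7 levels of the same libraries. Neurod2 was at 6.92%, 8.54% and 9.13%. Shares of Slc30a3, at 10.4%, 12.25% and 6.60%, and of Neurod1, at 1.02%, 1.63% and 0.827%, were more spread. Slc17a6 was at 1.15%, 5.37% and 1.67% of Slc17a7, so library 2 stood apart in this ratio. In control female library 2, the wild-type library with the most Slc17a7, Tbr1 was at 12.8%, Neurod6 at 10.2% and Slc17a6 at 5.77% of it. GFP male libraries 1, 2 and 3 had 38, 82 and 602 Slc17a7 counts, and Tbr1 was at 80.2%, 50.3% and 14.5% of Slc17a7 there.

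Of 18 tested pallial excitatory neuron genes that are not among the 31, 8 were called higher in Cre males, 1 was called lower and 9 were not called, against 3.68% of all genes called higher and 1.28% lower. Their median log2 fold change was 1.06. This list was also chosen with earlier results of these data known, so it is not an independent check. Cck, a neuropeptide gene of cortical neurons, had log2 3.99 (adjusted p = 0.00813), Dkkl1 log2 3.53 (adjusted p = 0.00591) and Nr4a2 log2 3.47 (adjusted p = 0.0108). Gnb4 was the one called lower (log2 -0.51, adjusted p = 0.0459). None of the 3 tested olfactory mitral cell genes and none of the 6 tested thalamic, hypothalamic and septal genes was called, with median log2 fold changes of -0.03 and 0.12.

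Levels of other cell types' genes in the same libraries are given beside this result. Medium spiny neuron genes were lower in 23 of 23 cases by sign, with a median log2 fold change of -0.32, and 1 of them, the transcription factor Isl1, was called (20.9, 21.7 and 23.9 CPM in Cre males, against 38.7, 34.8 and 31.3 CPM in GFP males, log2 -0.65, adjusted p = 0.0115). Their summed level was 10470, 5877 and 11030 CPM in Cre males and 11120 to 11970 CPM in GFP males, so library 2 had the lowest sum. Genes of choroid plexus and ependyma summed to 192.9, 2093 and 99.04 CPM in Cre males and to 71.08 to 92.84 CPM in GFP males, with none of the 11 tested called. Ttr, the transthyretin gene of choroid plexus, was at 125.1, 1846 and 23.8 CPM in Cre male libraries 1, 2 and 3. In GFP males it was at 0.951, 1.48 and 15.3 CPM. Meningeal genes summed to 57.86, 199.9 and 56.56 CPM in Cre male libraries 1, 2 and 3. In the 3 GFP male libraries they summed to 50.39 to 60.74 CPM, and none of the 9 was called. Of 8 striatal interneuron genes, 5 were higher and 3 lower by sign, with a median log2 fold change of 0.39. Sst (log2 0.54, adjusted p = 0.00388) and Npy (log2 0.44, adjusted p = 0.0226) were called higher, against 3.68% of all genes. No gene of the astrocyte, oligodendrocyte, endothelial and microglia lists (6, 6, 4 and 5 tested) was called, and their medians were 0.14, 0.23, -0.03 and 0.17. The part of these cell types in the marker result was not tested.

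**Figure D4:**
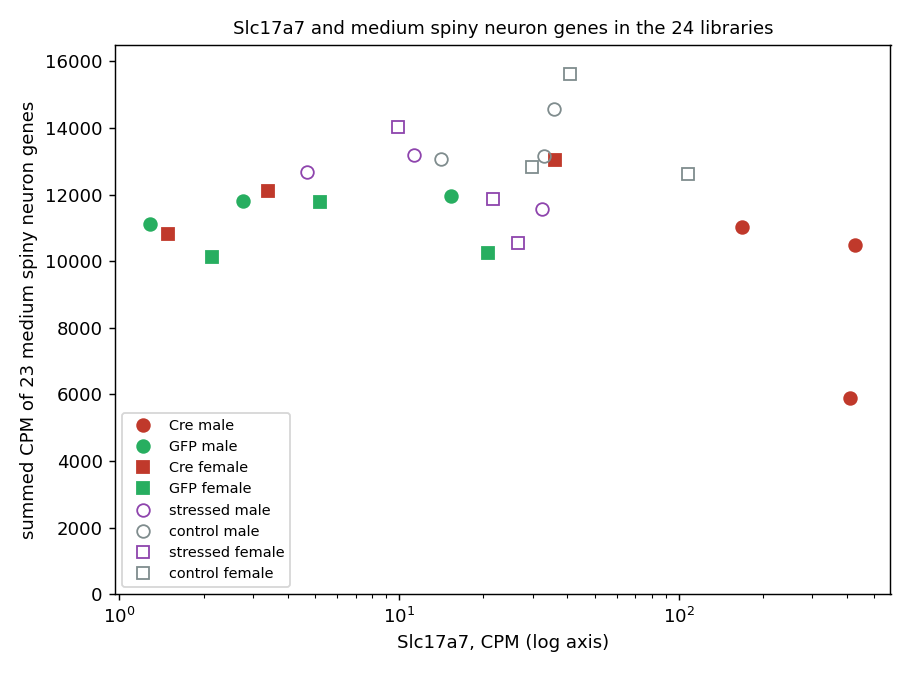
Slc17a7 (CPM, log axis) against the summed CPM of 23 medium spiny neuron genes in each of the 24 libraries; filled symbols are floxed, open symbols wild-type, circles male and squares female. The 3 Cre male libraries lie to the right of all others, and Cre male library 2 is the lowest on the vertical axis at 5877 CPM.

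The number of called markers in males rested on several libraries. Without Cre male library 1 it was 14 (1.78% of all genes called), and without Cre male library 2 it was 12 (1.91%). It was 10 without GFP male library 1 (1.38%), 8 without GFP male library 2 (0.52%) and 9 without GFP male library 3 (0.925%), so the share of all genes called was also below the 4.96% of the full set in each of these fits. With each of the 12 floxed libraries left out in turn, 7 of the 31 genes were called every time, namely Neurod1, Emx1, Nxph3, Rtn4r, C1ql3, Bhlhe22 and Fhl2. The matching share of all genes was not counted, so whether 7 is many cannot be said. With both Cre male libraries 1 and 2 left out, a choice made after seeing the data, none of the 31 was called and 2 of all genes were, while the median log2 fold change of the 31 was 1.21 and Slc17a7 had log2 4.63 (adjusted p = 0.449, with 0.00044 to 0.449 over all alternatives run). That fit assumes that the lone Cre male library varies like the other groups. Slc17a7 was called in 6 of the 12 fits that left out 1 library, with log2 5.17 to 7.37 and adjusted p 0.0243 to 0.142.

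In females, no excitatory neuron marker passed the test between AAV-CRE and AAV-GFP. None of the 31 genes was called, and none of the 17597 genes tested was (percent called 0), although 1049 had an unadjusted p below 0.05 by edgeR and DESeq2 called 34. Of the 31, 3 had an unadjusted p below 0.05, against 5.96% of all genes, and the median log2 fold change was 0.02. Slc17a7 was at 3.41, 1.496 and 36.0 CPM in Cre females against 20.8, 5.19 and 2.15 CPM in GFP females (log2 0.58, SE 1.19, adjusted p = 0.963). One library in each group was high and the ranges overlapped. Without Cre female library 3 the log2 fold change was -1.88. Groups did not overlap for 5 genes, all higher with Cre (Emx1, Emx2, Bhlhe22, Lhx2 and Hs3st4), where 6.5% of all genes did so, and none was lower throughout, against 5.04% of all genes.

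Lhx2, a LIM homeobox factor of the cortical primordium, had the smallest p in females, at 23.5, 23.9 and 24.2 CPM with Cre against 13.4, 16.7 and 21.9 CPM with GFP (log2 0.46, SE 0.14, adjusted p = 0.632). Ntng1 came next, at 10.8, 12.7 and 9.95 CPM with Cre against 15.01, 11.2 and 17.9 CPM with GFP (log2 -0.40, SE 0.18, adjusted p = 0.824), with log2 -0.56 to -0.24 when 1 library was left out. The groups of Lhx2 were apart and those of Ntng1 overlapped. Averaged over the sexes, Lhx2 was called (log2 0.47, SE 0.10, adjusted p = 0.0415), together with Emx1, Rtn4r, C1ql3, Fhl2, Bhlhe22, Nxph3, Fezf2, Slc30a3 and Neurod1. These 10 genes, all higher, compare with 1.42% of all genes called in that average and 1.3% called higher. At an unadjusted p below 0.05 there were 20 of the 31 and 14.2% of all genes. The call of Lhx2 was lost in 11 of the 12 fits that left out 1 floxed library. The count of 10 was 6, 4 and 1 without Cre female library 1, 2 or 3, and 1 without GFP female library 1 or 2. It was 2 and 6 without Cre male library 1 or 2, and 1, 0 and 1 without GFP male library 1, 2 or 3. In these 10 fits 0.0951% to 1.17% of all genes were called.

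The difference between the sexes in the Cre effect was tested directly. None of the 31 genes passed (22 had an unadjusted p below 0.05, against 17.5% of all genes), and 2 of all genes did (0.0114%). Over the 31 genes the median difference, female minus male, was -1.46 on the log2 scale, and 26 were negative. Rtn4r had -3.00 (SE 0.46, adjusted p = 0.066), Fhl2 -1.66 (SE 0.27, adjusted p = 0.0665) and Slc17a7 -5.05 (SE 1.71, adjusted p = 0.199). Rtn4r and Fhl2 were each called in 3 of the 12 fits that left out 1 library, and Slc17a7 in none. DESeq2 called 14 of the 31 in this contrast and 3.44% of all genes. By edgeR, 11 markers were called without Cre male library 3 (2.8% of all genes), 3 without Cre female library 3 (0.112%) and 4 without GFP female library 2 (0.806%).

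In the wild-type experiment, no excitatory neuron marker passed the test between stressed and control females. None of the 29 markers tested was called, nor was any of 15249 genes (percent called 0), of which 256 had an unadjusted p below 0.05. DESeq2 called 2 of all genes and none of the markers. With the replicate number as a block, which joined same-numbered libraries, edgeR called 5 genes and none of the markers. Neurod1 and Emx1 were too low to be tested, at no more than 0.616 and 1.01 CPM in any wild-type library. By sign, 25 of the 29 were lower, with a median log2 fold change of -0.28 against -0.01 over all genes, and 8 had an unadjusted p below 0.05, against 1.68% of all genes. For 5 genes all stressed female libraries lay below all control female libraries (Slc17a7, Slc30a3, Fezf2, Nxph3 and Hs3st2), where 2.58% of all genes did so, and none was above throughout, against 2.73%. Of 15 tested pallial excitatory neuron genes outside the marker list, 9 were lower and 6 higher by sign, with a median of -0.09 and none called.

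Slc17a7 was at 9.87, 21.6 and 26.5 CPM in stressed females against 41.0, 108 and 29.9 CPM in control females. The nearest libraries of the groups were close, and control library 2 was far above the rest. The log2 fold change was -1.62 (SE 0.67, adjusted p = 1). Slc30a3 was at 0.406, 1.35 and 0.972 CPM with stress against 2.02, 5.24 and 1.92 CPM in controls (log2 -1.70, SE 0.48, adjusted p = 1). Nxph3 was at 1.76, 2.18 and 2.78 CPM against 5.26, 9.55 and 2.83 CPM (log2 -1.39, SE 0.39, adjusted p = 1). These values come from the main fit, which did not pair the libraries. Alternative fits used edgeR, DESeq2 or limma-voom and included the replicate block. Over all of them the smallest adjusted p was 0.0521 for Nxph3, 0.145 for Slc30a3 and 0.853 for Slc17a7. Control female library 2 was the highest of the 12 wild-type libraries for 13 of the 31 genes, where it was the highest for 4.72% of all genes. Control female library 1 was the highest for 8 of the 31, and for 19.9% of all genes. Without control female library 2 the log2 fold changes were -0.88 for Slc17a7, -1.07 for Slc30a3 and -0.86 for Nxph3, and over all left-out libraries they reached -1.95, -2.14 and -1.72. The median over the markers, -0.28, was -0.19 without control female library 2. It was -0.13 when library 3 of the stressed females was left out and -0.47 when library 3 of the controls was. In the same contrast 21 of 23 medium spiny neuron genes were lower by sign, with a median of -0.14 and none called. Choroid plexus and ependymal genes summed to 65.71, 483.9 and 472.1 CPM in stressed females and to 73.06, 589.1 and 54.36 CPM in control females.

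**Figure D5:**
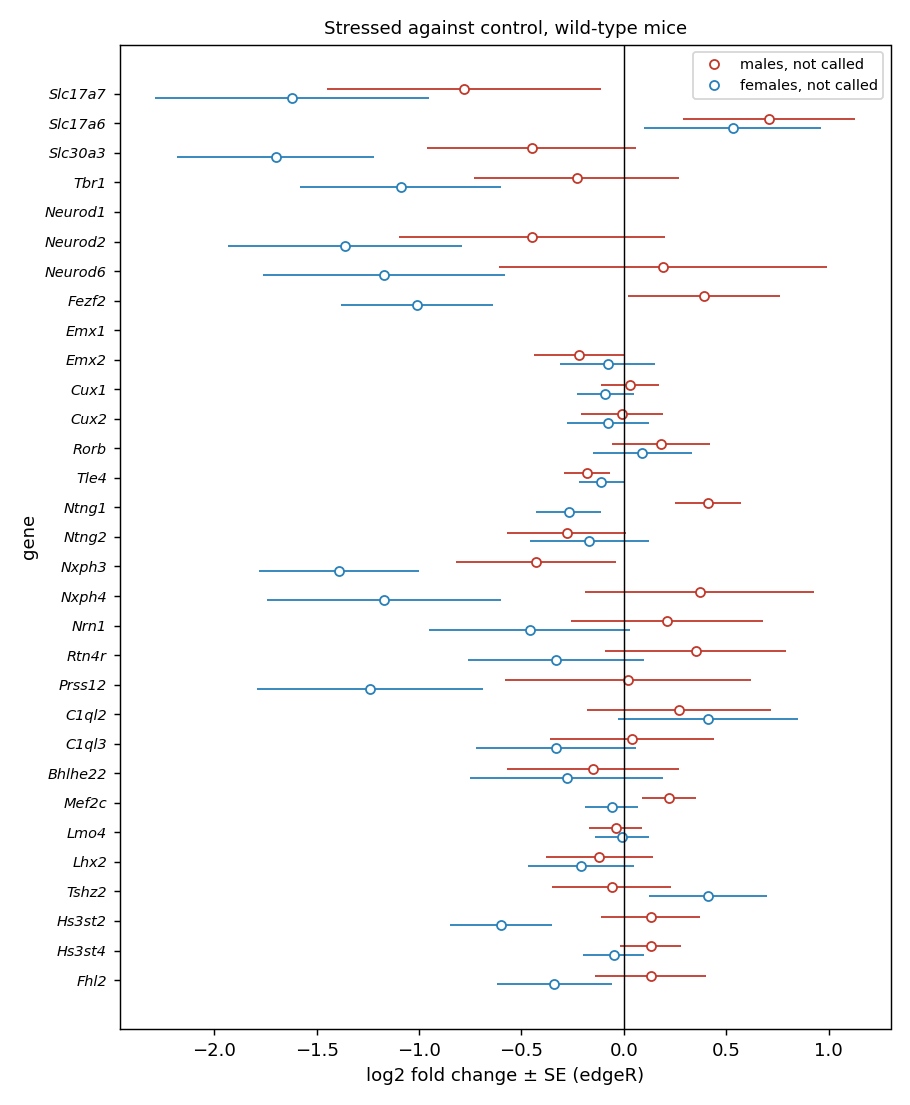
Log2 fold change of stressed over control wild-type mice with its SE for the 29 tested genes, in males (red) and females (blue); open symbols are not called. Females lie left of 0 for 25 genes and males for 13, with none of the points called.

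In wild-type males about as many markers were above as below their control level under stress. Of 29 genes, 16 were higher and 13 lower by sign, the median log2 fold change was 0.03, none was called and 1 had an unadjusted p below 0.05, against 2.81% of all genes. Over all genes, 1 was called (0.00656%). The marker below an unadjusted p of 0.05 was Ntng1, a netrin-G protein of axons, at 13.7, 15.8 and 13.7 CPM in stressed males against 11.5, 11.6 and 9.43 CPM in control males (log2 0.41, SE 0.16, adjusted p = 1). Slc17a7 was at 4.70, 32.5 and 11.3 CPM with stress against 35.9, 14.1 and 32.9 CPM in controls (log2 -0.78, SE 0.67, adjusted p = 1). The ranges overlapped, and the lowest wild-type value of this gene was in stressed male library 1, without which the log2 fold change was -0.34. Without stressed male library 2 it was -1.8. Mef2c, next by p, was at 182.2, 213.4 and 184.1 CPM with stress against 153.1, 175.0 and 167.9 CPM in controls (log2 0.22, SE 0.13, adjusted p = 1). Stressed male libraries were above the controls in every case for Slc17a6, Ntng1 and Mef2c, where 3.74% of all genes were, and below in every case for Tle4, where 4.15% were. Averaged over the sexes, none of the 29 was called and 2 of all genes were (0.0131%), while 3 markers and 3.21% of all genes had an unadjusted p below 0.05. The smallest p among the markers belonged to Nxph3 (log2 -0.91) and Slc30a3 (log2 -1.07). The stress effect in females minus that in males had a median of -0.37, with none of the markers and none of all genes called (percent called 0). At an unadjusted p below 0.05 there were 2 markers and 1.19% of all genes. The median of -0.37 ranged from -0.58 to -0.2 with 1 library left out. The difference was -0.69 for Ntng1 and -0.84 for Slc17a7, and for Slc17a7 it was -0.11 without control female library 2 and 0.17 without stressed male library 2. Choroid plexus and ependymal genes summed to 182.8, 97.2 and 209.5 CPM in stressed males and to 57.29, 1101 and 2655 CPM in control males, and the part of these cell types in the stress results was not tested.

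Genes whose level followed Slc17a7 were sought in the 12 wild-type libraries among 13409 genes, as the correlation of log2 levels; these libraries share their groups and tissue, so the values are a description. The closest were Nptx1 (r = 0.913, Spearman's rho 0.846), Neurod2 (r = 0.91, rho 0.699), Tbr1 (r = 0.91, rho 0.839) and Iqgap2 (r = 0.882, rho 0.79), followed by Nxph3 (r = 0.837, rho 0.951). Without the 2 libraries farthest from the median of Slc17a7 the r values were 0.785, 0.837, 0.885, 0.768 and 0.755 in the same order. Of these 5 genes, 3 were among the 31 markers. Next in order came Blnk (r = 0.818), Ccn3 (r = 0.812) and Lrrc8c (r = 0.775), none of them a marker. Without the same 2 libraries their r values were 0.492, 0.695 and 0.541. The floxed libraries fall into Cre males and the rest by Slc17a7, so no r over all 12 is given for them.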

How the data were processed

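RNA was sequenced from 24 libraries of pooled mRNA. The deposited table holds whole-number read counts per Ensembl gene, with no normalisation by the authors. The submitters' processing notes name Bowtie2 2.1.0, TopHat2 2.0.9, HTSeq 0.6.0 and the builds NCBIM37 and mm9; the sources used here give no annotation, settings or strand. Symbols were found for 32919 of 37991 IDs. The 31 markers and the other gene lists were chosen with earlier results of these data known.

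Each experiment was fitted with edgeR 4.0.16 (quasi-likelihood, robust, TMM scaling, R 4.3.3) over its 12 libraries. Genes too low for edgeR's filter were left out, and p-values were adjusted over all genes tested (Benjamini-Hochberg, threshold 0.05). Fits were tested on simulated data for the female contrast of each experiment only, with independent counts and no pairing. Levels per kilobase used GENCODE M21 exon lengths. Replicates differed beyond sampling noise in every group. Values in every library are given for the transporter genes, Tbr1, the NeuroD genes, every called marker and the 2 markers of smallest p in each contrast within a sex; other markers and Gnb4 were detailed after their values were seen. Pairing was checked by correlating libraries' deviations from group means. Same-numbered libraries gave 0.592, 0.334 and 0.524 in wild-type females, against -0.494 to 0.079 for differently numbered ones. These libraries thus look paired, by the data and not the labels. Same-numbered values were 0.341, 0.247 and 0.086 in wild-type males and at most 0.109 in the floxed groups. Differently numbered libraries of floxed females reached 0.462, so a high value alone does not establish a pair. Alternatives were other size factors, no filter, DESeq2 1.42.0, limma 3.58.1 (voom), fits of 2 groups, a replicate block and leaving out each library.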

Additional observations from a re-analysis of the deposited data

Results flagged for a closer look

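Hs3st4, a heparan sulfate sulfotransferase, lay in opposite directions in the sexes. All 3 Cre male libraries (45.8, 39.8 and 42.4 CPM) were below all 3 GFP male libraries (49.4, 56.8 and 52.9 CPM). All 3 Cre female libraries (48.7, 51.7 and 48.4 CPM) were above all 3 GFP female libraries (47.3, 48.2 and 41.8 CPM). The nearest female libraries were almost level, and the gene was not called in females (log2 0.12, SE 0.07, edgeR adjusted p = 0.878). Of all genes, 14.7% were lower throughout in males and 6.5% higher throughout in females. The share of all genes that did both was not counted. The difference of the Cre effects, female minus male, was 0.43 on the log2 scale (SE 0.10) and did not pass edgeR's test (adjusted p = 0.097).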

How the results depend on the processing

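In Cre against GFP males, called genes numbered 1811 by DESeq2, 551 with 2 groups only, and 93 to 1303 with a library left out; called markers 8 to 21. Without both Cre male libraries 1 and 2 (chosen after seeing the data) they were 2 and 0. In the average over the sexes, DESeq2 called 652 genes and 18 markers, limma-voom 3 markers, the fits without a library 17 to 401 and 0 to 11, and the fit without both 71 and 1. For the sex difference, no filter gave 43 genes and 2 markers, DESeq2 606 and 14, limma-voom 0 genes, left-out libraries 0 to 500 and 0 to 11, and the fit without both 0 genes. Cre against GFP in females gave 34 genes by DESeq2. In the stress contrasts, which had no called marker in any fit, genes called without a filter, by DESeq2 and with the block were 5, 2 and 5 in females, 3, 4 and 4 in males (0 by limma-voom and with 2 groups only) and 12, 12 and 13 in the average; left-out libraries gave 0 to 1, 0 to 1 and 1 to 3.

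The replicate block, on numbers that did not pair the floxed libraries, gave 191 genes and 12 markers in males, 34 and 0 in the average and 0 genes in the sex difference. Slc17a7 in Cre against GFP females reversed to -0.11 with the block and to -1.88 without Cre female library 3 (-1.88 to 1.93 over left-out libraries). Its stress difference between the sexes reversed to 0.17 without stressed male library 2 (-1.29 to 0.17). The cause was not tested. Fits with 2 groups only were not run for averages and sex differences. Wild-type libraries had fewer reads, which limits what can be called at low levels.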
